A study of Homo sapiens with 12 samples.

Results

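The genes described here are 33 members of the integrated stress response that runs through the transcription factor ATF4, followed across RNA-seq libraries of DU145, a long established line of human prostate cancer cells. They were listed by name from what the genes are known to do, with earlier results of these data in view, and were found by matching the symbols to the 28747 Ensembl gene identifiers of the count table, where all 33 have a row. By role they are 6 transcriptional regulators (ATF4, ATF3, DDIT3, CEBPB, CEBPG, NUPR1), 5 effectors (TRIB3, PPP1R15A, CHAC1, SESN2, EIF4EBP1), 8 enzymes of amino acid synthesis and one-carbon metabolism (ASNS, PSAT1, PHGDH, PSPH, SHMT2, MTHFD2, ALDH1L2, PCK2), 7 amino acid transporters (SLC7A11, SLC3A2, SLC7A5, SLC7A1, SLC1A5, SLC1A4, SLC38A2), 4 genes of tRNA charging and export (AARS1, GARS1, WARS1, XPOT) and 3 genes of secreted or surface proteins (STC2, GDF15, VLDLR). The 12 libraries form 4 groups of 3 biological replicates. Cells carried either a control hairpin (shCtrl) or a targeting hairpin (shSigma), and grew either attached to plastic in medium with serum (adherent) or as floating tumor spheres at low density in serum-free medium with growth factors. The study's methods describe the knockdown cells as stable lentiviral lines selected with puromycin, and do not describe how the control line was selected. Which of the study's hairpins the sequenced cells carried is not given in the sources used here, so effects of the target, of the hairpin and of the selected line cannot be told apart. Medium, serum, attachment and density changed together between adherent cells and spheres and cannot be told apart either.

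In the integrated stress response, any of several kinases phosphorylates the translation factor eIF2 when amino acids run short, when unfolded protein builds up in the endoplasmic reticulum, when haem is lacking or when mitochondria are disturbed. General translation then slows while the ATF4 message is translated better, and ATF4, often paired with a C/EBP protein, switches on genes for taking up and making amino acids, for charging tRNAs and for handling redox stress. Long stress also brings in DDIT3 (CHOP), ATF3, TRIB3 and CHAC1, which are linked to cell death. Since ATF4 is controlled mainly through translation, read counts of its own message do not measure the protein.

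The DNA element through which ATF4 and C/EBP proteins act was looked up in the promoters of these genes. The C/EBP-ATF response element was searched as TGATGNAA on both strands in the 250 bases before the RefSeq start of each gene (GRCh38.p14). A RefSeq promoter was at hand for 27 of the 33 genes, and 4 of the 27 (14.8%) held the element, beside 870 of 27305 promoters of all genes (3.19%). The cyclic AMP response element, searched as TGACGTCA on both strands, was found in 1 of the 27 (3.7%) and in 1.77% of all promoters. The endoplasmic reticulum stress element, a CCAAT box followed at a fixed distance by CCACG, searched on both strands, was found in 0 of the 27 and in 0.0806% of all promoters. The 5 matches are shown with 11 bases on either side, along the strand of the gene, and capitals mark the matched letters. A match describes these letters only.
ASNS, 61 to 68 bases before the start, chr7:97872458-97872487, minus strand: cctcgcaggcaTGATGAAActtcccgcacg
ATF3, 184 to 191 bases before the start, chr1:212565205-212565234, plus strand: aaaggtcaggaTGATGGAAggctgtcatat
CHAC1, 202 to 209 bases before the start and on the opposite strand, chr15:40953251-40953280, plus strand gene: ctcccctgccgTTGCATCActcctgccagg
AARS1, 180 to 187 bases before the start and on the opposite strand, chr16:70289675-70289704, minus strand gene: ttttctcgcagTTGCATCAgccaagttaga
PPP1R15A, cyclic AMP response element 51 to 58 bases before the start, chr19:48872352-48872381, plus strand: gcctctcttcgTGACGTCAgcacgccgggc

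The libraries held 16472722 to 26957777 counts each. Levels are given as CPM (each gene's share of its library, scaled to the usual common size). The keratins KRT8 and KRT18 were at 202 to 516 CPM in all 12 libraries, while KLK3 and KLK2 stayed at or under 0.0965 CPM, and the summed CPM of 5 endothelial and leukocyte markers was 0.176 to 1.9. EPCAM differed by hairpin (213 to 663 CPM in shCtrl, 29.7 to 63.6 CPM in shSigma libraries), and CDH1 was at 678 to 770 CPM in shCtrl spheres but at or under 30.1 CPM elsewhere. Mitochondrial transcripts made up 4.94 to 5.82% of counts in shCtrl spheres and 7.35 to 8.51% in shSigma spheres. The part of these differences in the results below was not tested. Adherent shCtrl replicate 1 and adherent shSigma replicate 3 stood apart from the other libraries of their groups, with a chi-square per gene of 19.7 and 43.9 for the first and 24.5 and 32.8 for the second against its group, where adherent shSigma replicates 1 and 2 gave 2.73. Adherent shCtrl replicates 2 and 3 gave 11.2, so adherent shCtrl replicate 1 stood apart less clearly. Pairs within the sphere groups gave 2.91 to 13. Adherent shCtrl replicate 1 and adherent shSigma replicate 3 shared a high mitochondrial share in their groups (7.37 and 8.04%) and low levels of EIF4EBP1, CHAC1, SLC7A5 and SHMT2, so adherent comparisons are also given without them.

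Counts above 0 were present for 31 of the 33 genes. SESN2, a stress-induced regulator of TORC1, and PCK2, the mitochondrial form of phosphoenolpyruvate carboxykinase, are listed at 0 in all 12 libraries. How reads of overlapping genes were assigned is not given in the sources used here, and 19 of the 33 genes overlap another annotated gene, 7 of them on the same strand. PCK2 overlaps NRL on the other strand and SESN2 overlaps no annotated gene, and neither listed 0 is read as absence. The levels of the others ranged widely. Per kilobase of the MANE Select transcript, which makes levels comparable between genes, PSAT1 was the most abundant in adherent shCtrl cells at 367 CPM per kb, followed by SLC38A2 at 360, ATF4 at 314 and AARS1 at 276 CPM per kb. In spheres ATF4 itself was first, at 313 CPM per kb in shCtrl and 277 CPM per kb in shSigma cells. ASNS, often a leading ATF4 target, was among the lowest at 1.37 to 2.44 CPM per kb. It overlaps an unnamed gene on its own strand and another on the opposite strand, so its level is less certain than those of its neighbours in this list.

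**Figure D1:**
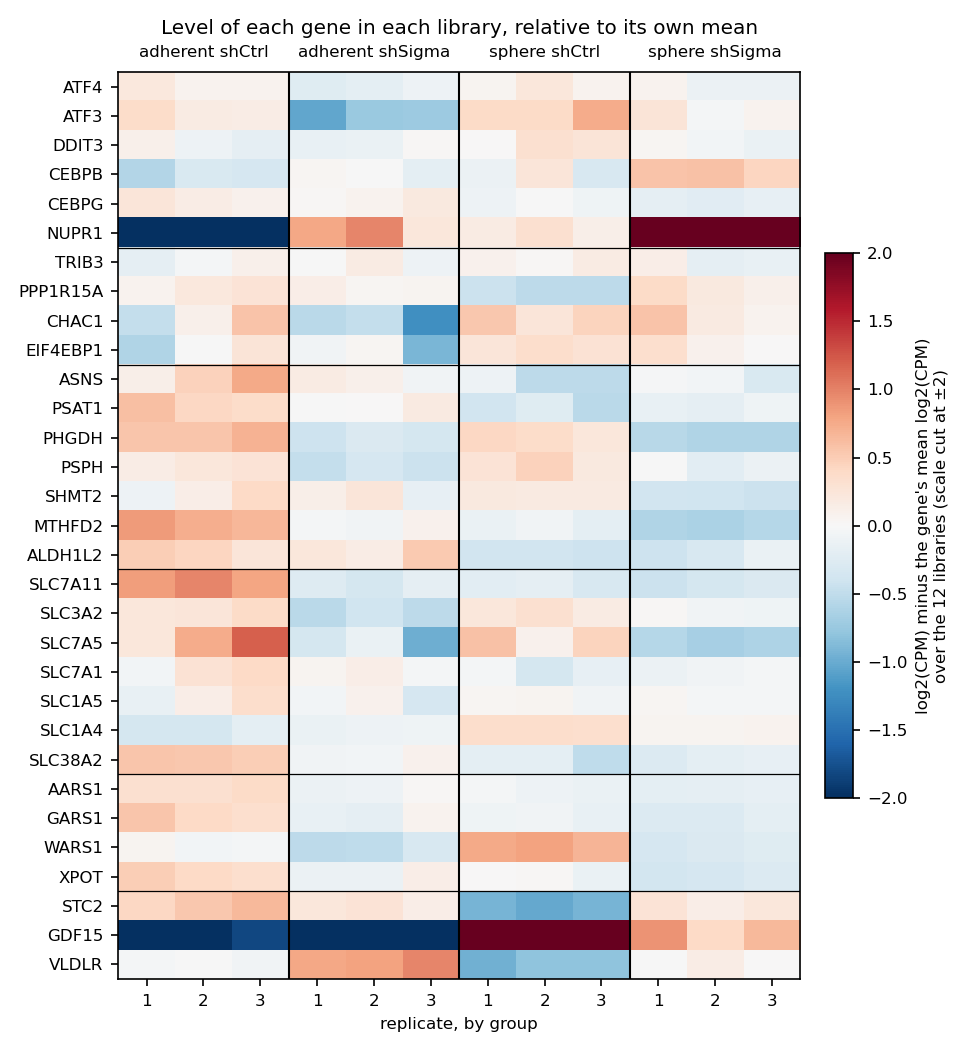
Each row is 1 of the 31 genes with counts, each column 1 library, and colour gives log2 CPM minus the mean log2 CPM of that gene over the 12 libraries, cut at 2 in either direction; lines separate roles and groups. Many enzymes, transporters and tRNA genes are reddest in adherent shCtrl cells, with WARS1, SLC1A4, PSPH and SHMT2 among the exceptions, NUPR1 is lowest there and highest in shSigma spheres, and GDF15 is high in shCtrl spheres.

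In adherent cells, knockdown went with lower messages of genes for amino acid import, serine and one-carbon synthesis and tRNA charging. Of 30 genes tested, 15 were lower in shSigma than in shCtrl cells, 2 were higher (NUPR1 and VLDLR) and 13 were not called. Here and below, a gene is called at an adjusted p under 0.05. The p-value is that of the quasi-likelihood test of edgeR, adjusted by Benjamini-Hochberg across every gene of that comparison. The test weighs the difference between groups against the spread between libraries of a group, 3 in each. It does not cover the spread between cell lines or hairpins. The background was high: of 13764 genes tested 50.0% were called, 27.7% lower and 22.3% higher, beside 50.0% lower and 6.67% higher among the stress response genes. The median log2 fold change was -0.42 over the 30 genes and -0.01 over all genes tested. The 15 lower genes were 2 of 6 regulators (ATF4, ATF3), 4 of 7 enzymes (PSAT1, PHGDH, PSPH, MTHFD2), 4 of 7 transporters (SLC7A11, SLC3A2, SLC7A5, SLC38A2), 4 of 4 tRNA genes (AARS1, GARS1, WARS1, XPOT) and STC2. None of the 4 effectors tested was called. Without both adherent libraries that stand apart, 19 genes were lower and 3 higher. In bulk cells, fewer cells of a type and less RNA per cell cannot be told apart.

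In tumor spheres, calls after knockdown went in both directions. Of 31 genes tested, 15 were lower in shSigma spheres, 6 were higher and 10 were not called, where 61.1% of all 13774 genes tested were called, 30.9% lower and 30.2% higher. The shares among the stress response genes were 48.4% lower and 19.4% higher, and their median log2 fold change was -0.15, beside 0.00 over all genes. The higher genes were CEBPB, NUPR1, PPP1R15A, PSAT1, STC2 and VLDLR. The lower ones were ATF4, ATF3, DDIT3, CEBPG, PHGDH, PSPH, SHMT2, MTHFD2, SLC3A2, SLC7A5, SLC1A4, GARS1, WARS1, XPOT and GDF15. Of the 15 lower calls 10 held in all 14 refits with another setting or 1 library left out, and of the 6 higher calls 5 did.

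**Figure D2:**
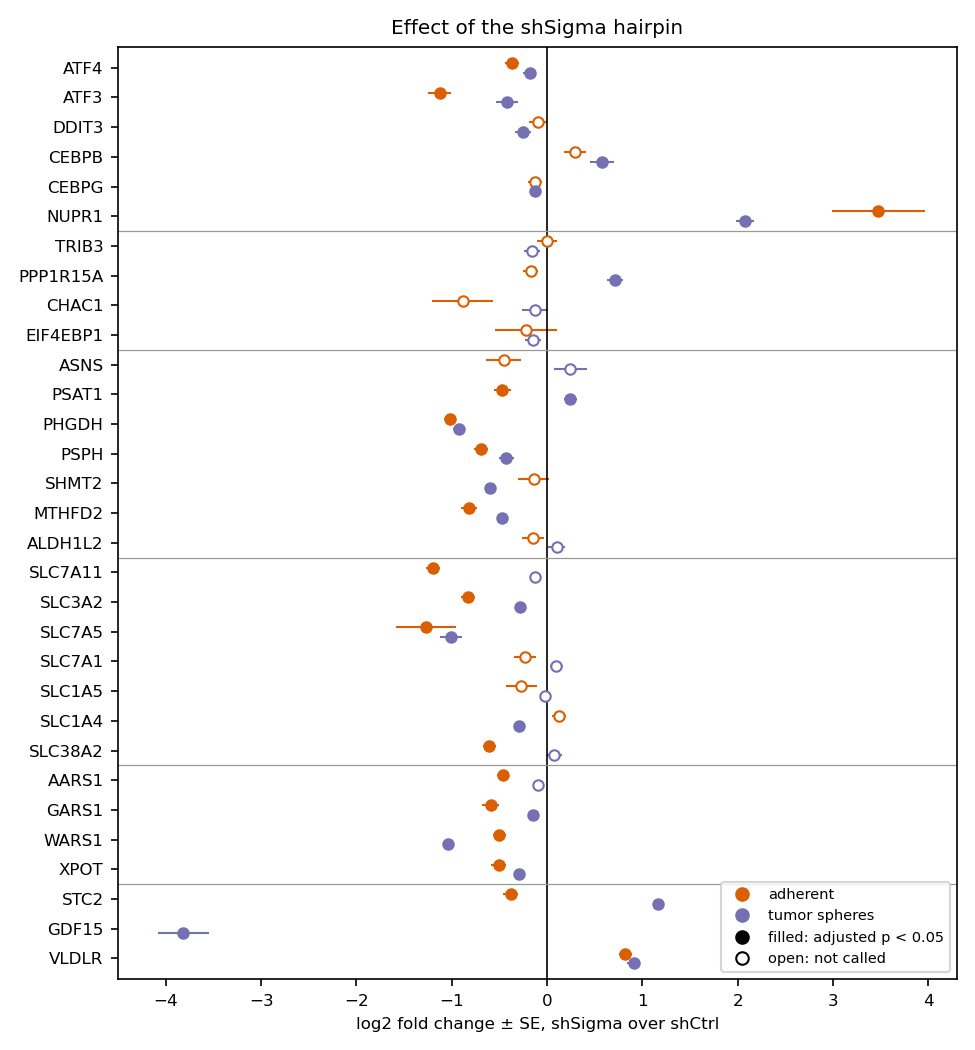
Points give the log2 fold change of shSigma over shCtrl cells for each gene, with bars of 1 standard error, in adherent cells (orange) and tumor spheres (violet); filled points passed an adjusted p of 0.05. Most filled points lie left of 0 in both cultures, NUPR1 and VLDLR lie right of 0 in both, and STC2 and PSAT1 lie on opposite sides.

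Control cells also differed between cultures, with more genes of the list lower than higher in spheres. Of 31 genes tested in shCtrl cells, 15 were lower in spheres, 4 were higher (NUPR1, SLC1A4, WARS1, GDF15) and 12 were not called, with 53.7% of all 13800 genes called, 26.3% lower and 27.4% higher. The lower genes were CEBPG, PPP1R15A, ASNS, PSAT1, PHGDH, MTHFD2, ALDH1L2, SLC7A11, SLC7A1, SLC38A2, AARS1, GARS1, XPOT, STC2 and VLDLR. Of these, PHGDH was called higher when set against its 40 nearest genes (0.21, adjusted p = 0.0411), and its call was lost without sphere shCtrl replicate 3 (adjusted p = 0.0508). The stress response genes had shares of 48.4% lower and 12.9% higher and a median log2 fold change of -0.23, beside 0.04 over all genes. In shSigma cells the calls were even, with 9 of 31 genes higher in spheres and 9 lower, where 47.1% of all 13622 genes were called, 21.9% higher and 25.2% lower. ATF3, CEBPB, NUPR1, CHAC1, PSPH, SLC3A2, SLC1A4, WARS1 and GDF15 were higher, and CEBPG, PSAT1, PHGDH, SHMT2, MTHFD2, ALDH1L2, SLC38A2, XPOT and VLDLR were lower. Of the 9 higher calls 7 held in every refit, and of the 9 lower calls 5 did. The median there was -0.06 over the 31 genes and 0.00 over all genes. The comparison in shCtrl cells and the knockdown in adherent cells share the adherent shCtrl libraries, and a value particular to those 3 libraries enters both. In the 4 comparisons between pairs of groups, taken in the order given, the libraries of both groups did not overlap for 19 of 30, 20 of 31, 19 of 31 and 19 of 31 of the stress response genes tested, beside 57.9, 66.8, 62.7 and 60.8% of all genes tested. Without the adherent library that stands apart in each comparison, 17 genes were lower and 5 higher in shCtrl spheres, and 11 lower and 10 higher in shSigma spheres.

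Whether the effect of the hairpin itself differed between cultures was tested as an interaction over all 12 libraries, given as the effect in spheres minus that in adherent cells. It was called for 15 of 31 genes, 10 above 0 and 5 below, where 28.4% of all 14175 genes were called, 12.7% above 0 and 15.6% below. The share above 0 was thus 32.3% among the stress response genes, and that below 0 was 16.1%. The median was 0.21 over the 31 genes and -0.03 over all genes. The 10 genes above 0, whose hairpin effect was less negative or more positive in spheres, were ATF3, PPP1R15A, PSAT1, MTHFD2, SLC7A11, SLC3A2, SLC38A2, AARS1, GARS1 and STC2. The 5 below 0 were NUPR1, SHMT2, SLC1A4, WARS1 and GDF15. Without both adherent libraries that stand apart the counts were 13 above 0 and 4 below. Calls with a log2 fold change over 1 in size numbered 5 of 30 stress response genes for the knockdown in adherent cells. In the other comparisons, in the order given, they numbered 5, 4, 3 and 4 of 31 genes. Among all genes tested the shares were 13.7, 13.1, 15.8, 9.32 and 8.54%, in the same order.

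**Figure D3:**
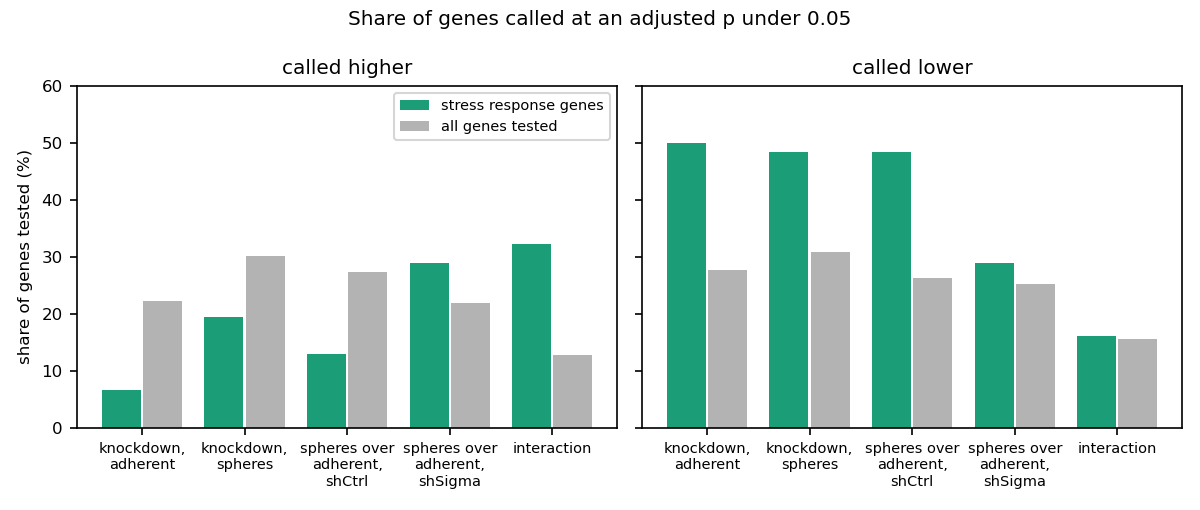
Bars give the percentage of tested genes called higher (left) and called lower (right) in each of the 5 comparisons, for the stress response genes (green) and for all genes tested (grey); for the interaction, higher means above 0. The green bars for lower calls stand at 50.0, 48.4 and 48.4% in the first 3 comparisons, where the grey bars stand between 26.3 and 30.9%.

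ATF4 (chr22:39519695-39522683), the regulator at the centre, changed little. Its level was 475, 431 and 428 CPM in adherent shCtrl, 345, 356 and 381 CPM in adherent shSigma, 424, 480 and 430 CPM in sphere shCtrl and 429, 376 and 375 CPM in sphere shSigma libraries. The adherent shSigma libraries lie below all adherent shCtrl libraries, while the sphere groups overlap. The log2 fold change with the hairpin was -0.37 ± 0.073 in adherent cells (SE, adjusted p = 0.00438), and in spheres it was -0.18 ± 0.0675 (adjusted p = 0.036). The first call was lost in 1 of 15 refits, that without adherent shSigma replicate 1 (-0.27, adjusted p = 0.0685). The second is thin and was lost in 7 of 14 refits, with adjusted p = 0.0619 to 0.156 without shCtrl replicate 2 or 3 or shSigma replicate 2 or 3. The interaction was not called (0.13, adjusted p = 0.424), but against the 40 nearest genes it was (0.35, adjusted p = 0.0257). Between spheres and adherent cells ATF4 was not called with either hairpin, at log2 fold changes of 0.00 (adjusted p = 0.986) and 0.15 (adjusted p = 0.0849).

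ATF3 (chr1:212565334-212620777), a stress-induced repressor and partner of ATF4, moved more than ATF4 itself. It was at 41.1, 35.7 and 35.4 CPM in adherent shCtrl libraries, 15.5, 19 and 19.3 CPM in adherent shSigma libraries, 41.5, 41.4 and 53.4 CPM in shCtrl spheres and 37.9, 30.9 and 33.3 CPM in shSigma spheres. The adherent shSigma libraries were lower than all 9 others. The hairpin's log2 fold change was -1.13 ± 0.116 in adherent cells (adjusted p = 0.000197) and -0.42 ± 0.113 in spheres (adjusted p = 0.00785), and the effects differed (interaction 0.65 ± 0.172, adjusted p = 0.0123). Among shSigma cells it was higher in spheres, by 0.95 ± 0.109 on the log2 scale (adjusted p = 0.000349). Against its 40 nearest genes the fall in spheres was no longer called (-0.26, adjusted p = 0.0696). The element shown above lies in its promoter, as it does in those of ASNS, CHAC1 and AARS1. Of these 4 genes, ATF3 and AARS1 fell with the hairpin in adherent cells, and CHAC1 and ASNS were not called there at -0.88 (adjusted p = 0.061) and -0.45 (adjusted p = 0.0747). Of 20 tested genes of the list whose promoter lacked the element, 11 were called lower there and 1 higher. Without both adherent libraries that stand apart, CHAC1 (-0.88, adjusted p = 0.000183) and ASNS (-0.50, adjusted p = 0.0172) were called lower too. Among genes lacking the element, that refit added SLC7A1 (-0.27, adjusted p = 0.00218) and SLC1A5 (-0.25, adjusted p = 0.0115) as lower. It added CEBPB as higher (0.32, adjusted p = 0.00726). In spheres 1 of the 4 genes with the element and 12 of 21 without it were lower, while 0 and 5 were higher. Whether the element bears on these calls was not tested.

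DDIT3, which encodes CHOP, and the C/EBP partners behaved differently from each other. DDIT3 was at 42, 36.7 and 34.7 CPM in adherent shCtrl, 35.6, 35.8 and 39.8 CPM in adherent shSigma, 39.4, 48.9 and 47 CPM in sphere shCtrl and 40.4, 37.7 and 35.8 CPM in sphere shSigma libraries. All 4 groups overlap, and the gene shares its locus with MARS1 and MBD6 on the other strand and with an unnamed gene and MIR616 on its own. It was called in shSigma spheres only among the comparisons made (log2 fold change -0.25, adjusted p = 0.0249), and that call was lost without shCtrl replicate 2 or 3 or shSigma replicate 2 or 3 (adjusted p = 0.0588 to 0.103). Against its 40 nearest genes the value in spheres was -0.03 (adjusted p = 0.773). CEBPB averaged 34.8 ± 6.91 CPM (SD, n = 3) in shCtrl spheres and 51.8 ± 2.97 CPM in shSigma spheres. That rise was 0.58 on the log2 scale (adjusted p = 0.00222), with the libraries separate, and in adherent cells the difference of 0.30 was not called (adjusted p = 0.0642) but was in 7 of 15 refits, among them that without both libraries that stand apart (0.32, adjusted p = 0.00726). CEBPB was also higher in shSigma spheres than in adherent shSigma cells (0.60, adjusted p = 0.00137). CEBPG, the partner that forms a heterodimer with ATF4, stayed between 148 and 203 CPM, and its fall of 0.12 on the log2 scale in shSigma spheres (adjusted p = 0.0478) was lost in 12 of 14 refits. Without any 1 of the 6 sphere libraries its adjusted p = 0.0563 to 0.149. Spheres held less CEBPG than adherent cells with shCtrl (-0.23, adjusted p = 0.0147) and with shSigma (-0.26, adjusted p = 0.00347), the first of which was lost without adherent shCtrl replicate 2 or sphere shCtrl replicate 1 or 3 (adjusted p = 0.0533 to 0.0644).

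NUPR1 (chr16:28532708-28539008), a small stress-induced chromatin protein, was called higher in both cultures. It was at 0.192, 0.55 and 1.07 CPM in adherent shCtrl libraries, which is 5, 13 and 27 counts, and at 7.38, 8.5 and 5.07 CPM in adherent shSigma libraries. In spheres it was at 4.86, 5.41 and 4.69 CPM with shCtrl and at 21.3, 21 and 21 CPM with shSigma. The groups of each comparison are separate, and shSigma spheres are above all other libraries. The hairpin's log2 fold change was 3.48 ± 0.492 in adherent cells (adjusted p = 0.00162) and 2.08 ± 0.0987 in spheres (adjusted p = 9.91e-09). Sphere culture raised it with both hairpins, by 3.04 on the log2 scale with shCtrl (adjusted p = 0.000651) and 1.61 with shSigma (adjusted p = 0.000497). It passed the filter on low counts through the groups where it is high, and with at least 10 counts asked of every library it was not tested in the knockdown in adherent cells or the culture comparison in shCtrl cells, so the sizes of 3.48 and 3.04 rest on the few counts of adherent shCtrl cells. The difference between the hairpin effects, -1.45 on the log2 scale (adjusted p = 0.0307), rests on the same counts and was lost in 12 of 19 refits. Leaving out any 1 library except adherent shCtrl replicate 3 or adherent shSigma replicate 3 gave adjusted p = 0.0529 to 0.0799, with the value at -0.96 without adherent shCtrl replicate 1.

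**Figure D4:**
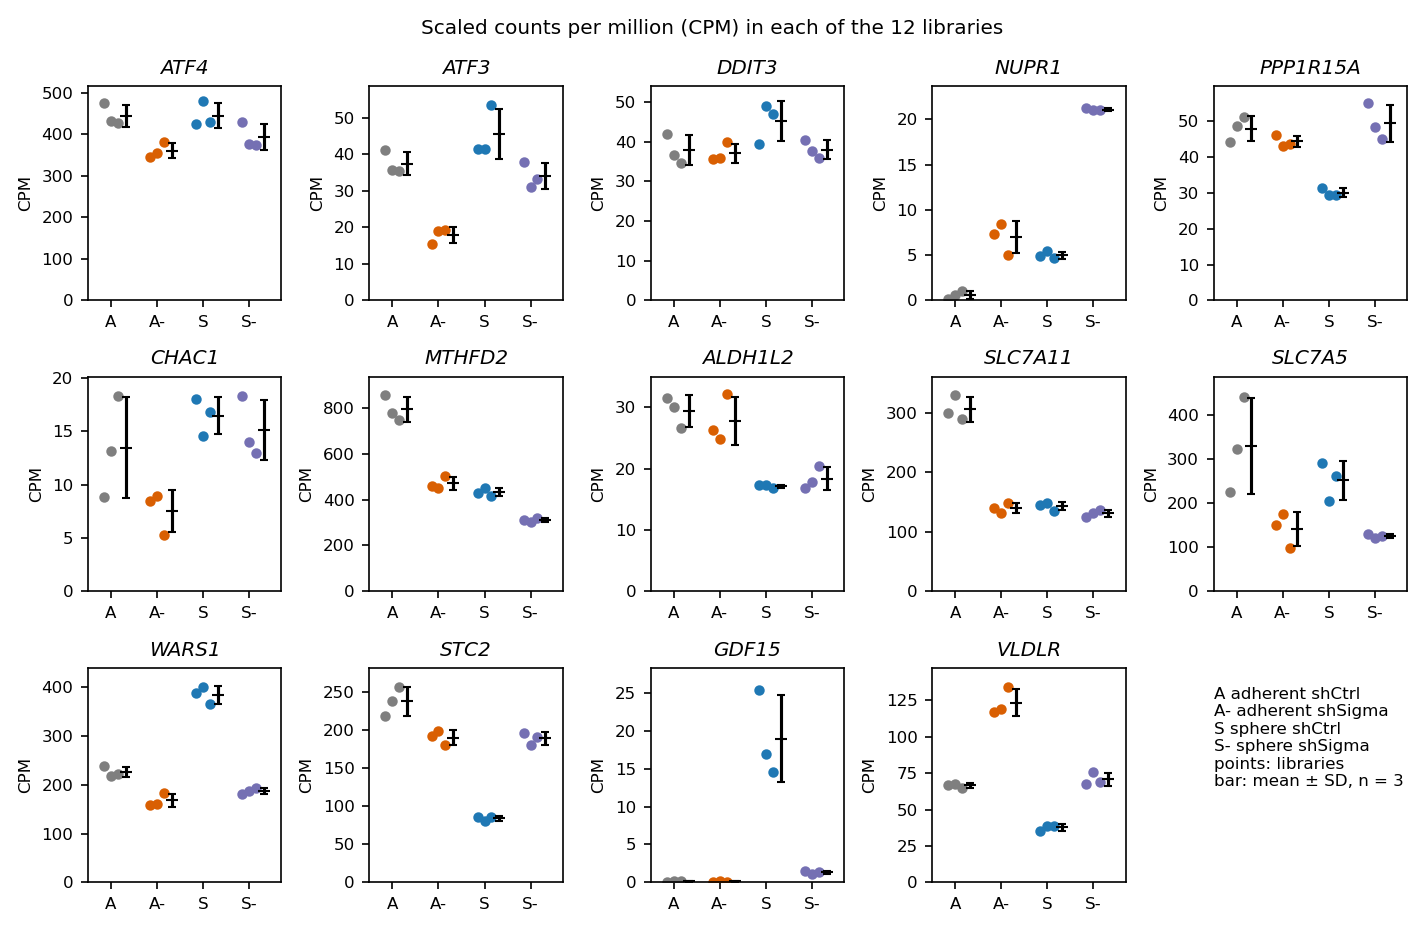
Each panel shows 1 gene in CPM on a linear axis from 0, with 1 point per library in the 4 groups and a bar for the mean ± SD of 3 libraries. ATF4 varies little, ATF3 is lowest in adherent shSigma cells, SLC7A11 and MTHFD2 are highest in adherent shCtrl cells, STC2 is lowest in shCtrl spheres and GDF15 is high in shCtrl spheres.

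Among effectors, PPP1R15A (GADD34), the subunit that directs a phosphatase to eIF2 and so ends the response, differed by culture and hairpin together. It was at 44.1, 48.6 and 51.1 CPM in adherent shCtrl, 46.2, 43.2 and 43.7 CPM in adherent shSigma, 31.4, 29.3 and 29.4 CPM in sphere shCtrl and 55.1, 48.3 and 45 CPM in sphere shSigma libraries. The 3 shCtrl sphere libraries lie below the other 9, which overlap among themselves. Accordingly it was higher in shSigma than in shCtrl spheres (log2 fold change 0.72 ± 0.084, adjusted p = 1.68e-05) and lower in spheres than in adherent cells with shCtrl (-0.68 ± 0.0836, adjusted p = 0.000329), and the interaction was 0.83 (adjusted p = 0.000168). Neither the hairpin in adherent cells (-0.17, adjusted p = 0.107) nor the culture in shSigma cells (0.18, adjusted p = 0.119) gave a call.

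CHAC1, which breaks down glutathione, is one of the more variable genes here. Adherent shCtrl libraries held it at 8.87, 13.2 and 18.3 CPM and adherent shSigma libraries at 8.48, 8.91 and 5.26 CPM, while spheres held 18, 14.6 and 16.8 CPM with shCtrl and 18.3, 14 and 13 CPM with shSigma. The lowest library of each adherent group is the one that stands apart. It was higher in shSigma spheres than in adherent shSigma cells (log2 fold change 1.02 ± 0.242, adjusted p = 0.0143). The hairpin's -0.88 ± 0.32 in adherent cells became a call with DESeq2 (-0.86, adjusted p = 0.00818), in a single fit of all 12 libraries (-0.83, adjusted p = 0.0221), without shCtrl replicate 1 (-1.06, adjusted p = 0.0168) and without both libraries that stand apart (-0.88, adjusted p = 0.000183). TRIB3, a pseudokinase that damps ATF4, and EIF4EBP1, a brake on cap-dependent translation, were called in none of the 5 comparisons, with levels of 63.8 to 81.4 CPM and 28.6 to 68.4 CPM. Both were called lower in shSigma spheres only when shSigma replicate 1 was left out (-0.25 with adjusted p = 0.0107 for TRIB3, -0.24 with adjusted p = 0.0142 for EIF4EBP1).

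The serine pathway fell in adherent shSigma cells at each of its 3 steps. PHGDH (chr1:119648411-119744218), the first enzyme of serine synthesis, averaged 415 ± 23.2 CPM (SD, n = 3) in adherent shCtrl and 214 ± 9.91 CPM in adherent shSigma cells, and 346 ± 22.5 and 182 ± 2.6 CPM in spheres. The hairpin groups are separate in both cultures, with log2 fold changes of -1.02 ± 0.0676 (adjusted p = 3.14e-05) and -0.93 ± 0.0561 (adjusted p = 7.23e-08). The interaction was not called (0.03 ± 0.0928, adjusted p = 0.839). PHGDH lies in a stretch of chromosome 1 whose 40 nearest tested genes had median log2 fold changes of -0.56 and -0.40 in the same comparisons. Against those neighbours it was called lower in both, at -0.46 (adjusted p = 0.00121) and -0.53 (adjusted p = 8.94e-06). PSPH, the last enzyme, fell by 0.70 on the log2 scale in adherent cells (adjusted p = 0.000246) and by 0.43 in spheres (adjusted p = 0.00057).

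PSAT1, the middle enzyme, did not follow the other 2 in spheres. It averaged 810 ± 71.7 CPM in adherent shCtrl and 613 ± 45.7 CPM in adherent shSigma cells, but 449 ± 46.7 CPM in shCtrl and 533 ± 16.3 CPM in shSigma spheres, with separate groups in both comparisons. The log2 fold change was -0.47 ± 0.0901 in adherent cells (adjusted p = 0.0038) and 0.24 ± 0.069 in spheres (adjusted p = 0.00902), and the interaction was 0.65 ± 0.124 (adjusted p = 0.00143). Set against its 40 nearest genes, the rise in spheres was no longer called (0.15, adjusted p = 0.0902). In shCtrl cells PSAT1 was also lower in spheres than in adherent culture, at -0.85 (adjusted p = 0.00022).

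In the mitochondrial one-carbon pathway, which passes the carbon of serine on to formate, MTHFD2 (chr2:74186172-74217565) was called in every comparison. It was at 853, 778 and 745 CPM in adherent shCtrl, 458, 449 and 504 CPM in adherent shSigma, 429, 452 and 415 CPM in sphere shCtrl and 310, 304 and 320 CPM in sphere shSigma libraries. Adherent shCtrl libraries are above all others and shSigma spheres below all others. The hairpin lowered it by 0.82 ± 0.0811 on the log2 scale in adherent cells (adjusted p = 0.000171) and by 0.47 ± 0.0515 in spheres (adjusted p = 9.18e-06). Sphere culture lowered it by 0.88 with shCtrl (adjusted p = 4.25e-05) and by 0.57 with shSigma (adjusted p = 8.37e-05). The interaction of 0.28 (adjusted p = 0.0469) was lost in 10 of 20 refits. Without adherent shCtrl replicate 2, adherent shSigma replicate 1 or 2, sphere shCtrl replicate 1 or 3 or any sphere shSigma replicate its adjusted p = 0.0717 to 0.115.

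SHMT2, the step before MTHFD2, was steady in 3 groups and low in the fourth. It averaged 280 ± 48.2 CPM in adherent shCtrl, 264 ± 38.2 CPM in adherent shSigma, 285 ± 1.84 CPM in sphere shCtrl and 188 ± 3.41 CPM in sphere shSigma cells. It fell by 0.60 ± 0.0472 on the log2 scale in shSigma spheres (adjusted p = 6.39e-07) and was not called in adherent cells (-0.14, adjusted p = 0.502), where both libraries that stand apart held less of it. The interaction of -0.51 (adjusted p = 0.0364) was lost in 13 of 20 refits, with the value at -0.34 and adjusted p = 0.156 without adherent shCtrl replicate 1, and with adjusted p = 0.0533 to 0.0879 without any other library except replicate 3 of either adherent group or sphere shSigma replicate 1. ALDH1L2, which oxidises formyl groups in mitochondria, followed culture and not the hairpin. It was at 31.6, 30.1 and 26.6 CPM in adherent shCtrl, 26.4, 24.8 and 32.2 CPM in adherent shSigma, 17.3, 17.3 and 16.8 CPM in sphere shCtrl and 16.8, 17.9 and 20.5 CPM in sphere shSigma libraries. All adherent libraries are above all sphere libraries, with log2 fold changes of -0.78 ± 0.093 with shCtrl (adjusted p = 0.000274) and -0.57 ± 0.111 with shSigma (adjusted p = 0.0043), while the hairpin groups overlap in each culture.

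ASNS, which makes asparagine, had 53 to 180 counts per library. It was lower in spheres than in adherent cells with shCtrl, at 3.26 ± 0.577 against 5.81 ± 1.28 CPM (SD, n = 3; log2 fold change -0.84 ± 0.209, adjusted p = 0.0105). The hairpin gave no call in either culture, but in adherent cells ASNS was called lower in 3 of 15 refits. Among them were those without shCtrl replicate 1 (-0.55, adjusted p = 0.0257) and without both libraries that stand apart (-0.50, adjusted p = 0.0172). The interaction of 0.64 was not called (adjusted p = 0.0793) but was in 4 of 20 refits. ASNS sits on chromosome 7 among genes that were higher in shSigma cells, with a median log2 fold change of 0.59 over the 40 nearest tested genes in each culture. Against those neighbours it was lower in adherent cells (-1.04, adjusted p = 0.00299).

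The transporters held the largest falls in adherent cells among the stress response genes. SLC7A11 (xCT; chr4:138164097-138242349), which imports cystine in exchange for glutamate, was at 299, 329 and 289 CPM in adherent shCtrl, 140, 131 and 148 CPM in adherent shSigma, 145, 149 and 135 CPM in sphere shCtrl and 125, 131 and 137 CPM in sphere shSigma libraries. Adherent shCtrl cells stand alone at about the same high level in all 3 libraries, and the other 9 lie between 125 and 149 CPM. The hairpin's log2 fold change was -1.20 ± 0.0762 in adherent cells (adjusted p = 2.65e-05) and -0.13 ± 0.0571 in spheres (adjusted p = 0.0721), and the difference was 1.01 ± 0.1 (adjusted p = 6.48e-06). In the same way, sphere culture lowered SLC7A11 by 1.10 on the log2 scale with shCtrl (adjusted p = 1.15e-05), and the change of -0.07 with shSigma was not called (adjusted p = 0.358). These values share the 3 adherent shCtrl libraries.

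SLC7A5 (LAT1), the importer of large neutral amino acids, fell with the hairpin in both cultures but varied within groups. It was at 225, 323 and 441 CPM in adherent shCtrl, 150, 175 and 98.1 CPM in adherent shSigma, 290, 204 and 262 CPM in sphere shCtrl and 130, 122 and 126 CPM in sphere shSigma libraries. The hairpin groups are separate in both cultures. The log2 fold change was -1.27 ± 0.314 in adherent cells (adjusted p = 0.0168) and -1.01 ± 0.113 in spheres (adjusted p = 4.76e-05). The adherent call was lost without shCtrl replicate 2 (adjusted p = 0.0634) or shSigma replicate 1 (adjusted p = 0.071), and the value without both libraries that stand apart stayed called. It was also lost with the replicate block (adjusted p = 0.0756) and with no filter (adjusted p = 0.06). The sphere call held in all 14 refits, at log2 fold changes of -1.14 to -0.56. SLC3A2, the heavy chain that both SLC7A11 and SLC7A5 need to reach the membrane, averaged 245 ± 14.3 against 143 ± 8.16 CPM in adherent cells and 238 ± 12.5 against 196 ± 8.16 CPM in spheres. Its falls were 0.83 on the log2 scale (adjusted p = 0.00011) and 0.28 (adjusted p = 0.000805), and the interaction was 0.49 (adjusted p = 0.00163).

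SLC38A2 (SNAT2), a sodium-coupled importer of small neutral amino acids, was also highest in adherent shCtrl cells. Its means were 1724 ± 33.2 CPM in adherent shCtrl, 1183 ± 71.1 CPM in adherent shSigma, 977 ± 118 CPM in sphere shCtrl and 1033 ± 40.3 CPM in sphere shSigma cells. The hairpin lowered it in adherent cells (-0.61 ± 0.0692, adjusted p = 0.000315) and gave 0.08 in spheres (adjusted p = 0.428), and the interaction was 0.62 (adjusted p = 0.00158). In shSigma cells it was also lower in spheres (-0.17, adjusted p = 0.0326), a call lost in 7 of 15 refits. Without adherent shSigma replicate 1 or 2 or any sphere shSigma replicate the adjusted p was 0.0518 to 0.108. SLC1A4, an alanine, serine and cysteine transporter, was instead lowered in shSigma spheres (-0.29, adjusted p = 0.000966) and raised in spheres over adherent cells with shCtrl, from 37.8 ± 2.46 to 58.8 ± 0.55 CPM (0.64, adjusted p = 0.000236). The glutamine importer SLC1A5 was called in none of the 5 comparisons at 146 to 236 CPM. Without the libraries that stand apart it was called lower in adherent shSigma cells (-0.25, adjusted p = 0.0115) and in shCtrl spheres over adherent cells (-0.28, adjusted p = 0.0139). Against its 40 nearest genes it was lower in both and in shSigma spheres over shCtrl spheres (-0.25, adjusted p = 0.0017). The arginine and lysine importer SLC7A1 was called once, lower in shCtrl spheres (-0.40, adjusted p = 0.0351), a call lost without adherent shCtrl replicate 2 (adjusted p = 0.105) or sphere shCtrl replicate 2 (adjusted p = 0.104). In each of the other comparisons SLC7A1 gained a call in 2 refits. Without both libraries that stand apart it was lower in adherent shSigma cells (-0.27, adjusted p = 0.00218).

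**Figure D5:**
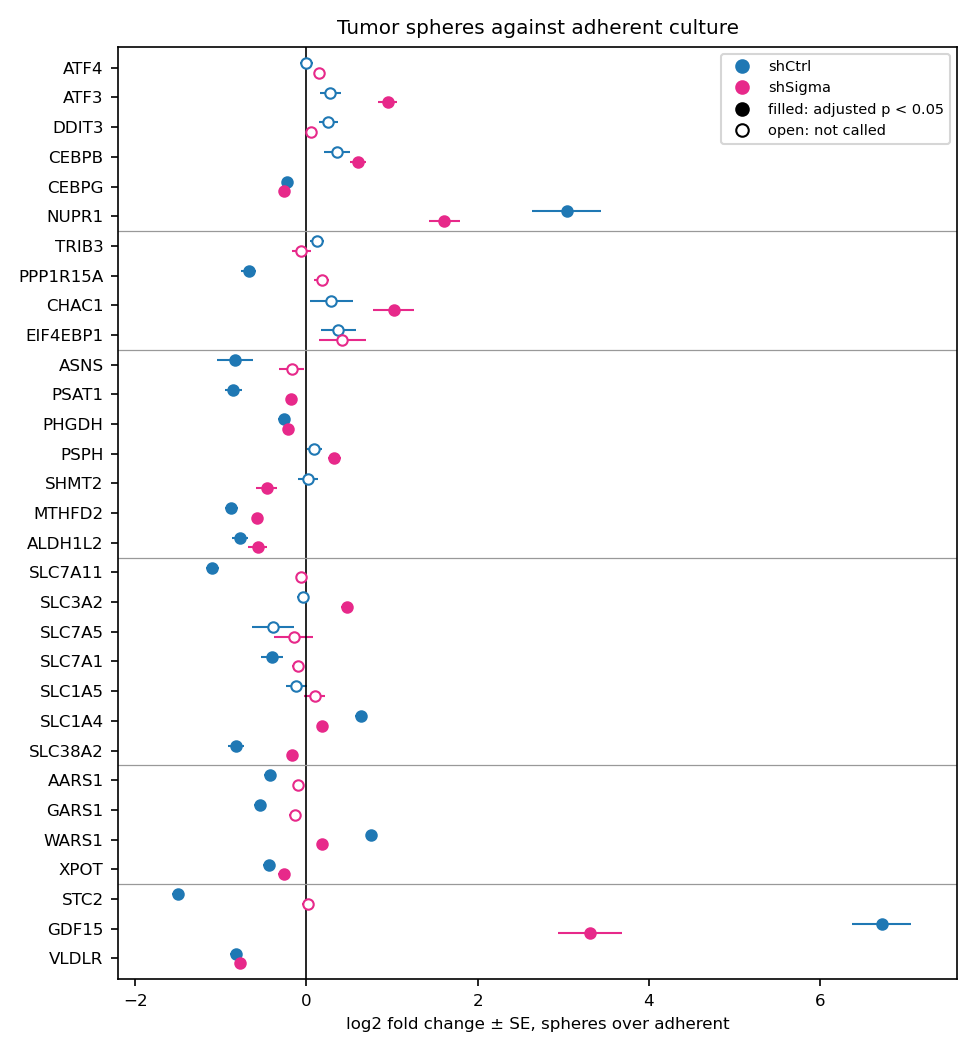
Points give the log2 fold change of tumor spheres over adherent cells for each gene, with bars of 1 standard error, for shCtrl cells (blue) and shSigma cells (pink); filled points passed an adjusted p of 0.05. Blue points for STC2, SLC7A11, MTHFD2, PSAT1 and SLC38A2 lie between -1.5 and -0.82, and all of their pink points lie nearer to 0.

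The tRNA genes fell together with the hairpin in adherent cells. The alanine, glycine and tryptophan synthetases AARS1, GARS1 and WARS1 and the export factor XPOT had log2 fold changes of -0.46 (adjusted p = 0.000581), -0.59 (adjusted p = 0.0013), -0.50 (adjusted p = 0.000843) and -0.51 (adjusted p = 0.00174), with separate groups for each. The XPOT call did not hold against its 40 nearest genes (-0.19, adjusted p = 0.0931), whose own median was -0.32. In spheres AARS1 was not called (-0.10, adjusted p = 0.122), and the fall of GARS1 by 0.15 (adjusted p = 0.0187) was lost without shCtrl replicate 1 or shSigma replicate 1 or 2 (adjusted p = 0.0513 to 0.0906) and was 0.00 against its 40 nearest genes (adjusted p = 0.965). The interaction was 0.31 for AARS1 (adjusted p = 0.0169) and 0.37 for GARS1 (adjusted p = 0.0191). The GARS1 interaction was lost without adherent shSigma replicate 1 or 2, sphere shCtrl replicate 3 or sphere shSigma replicate 3 (adjusted p = 0.053 to 0.0577).

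WARS1 (chr14:100333790-100376805), which is also induced by interferon γ, had a different pattern from the other synthetases in the list. It was at 238, 219 and 223 CPM in adherent shCtrl, 159, 161 and 184 CPM in adherent shSigma, 388, 400 and 365 CPM in sphere shCtrl and 182, 187 and 193 CPM in sphere shSigma libraries. The shCtrl spheres lie above all other libraries, and both shSigma groups lie below both shCtrl groups. Its hairpin effect was larger in spheres, at -1.04 ± 0.0527 (adjusted p = 1.67e-08), where the interaction was -0.60 ± 0.0961 (adjusted p = 0.000382), and sphere culture raised it by 0.76 ± 0.0628 on the log2 scale in shCtrl cells (adjusted p = 3.99e-05). Its locus overlaps WDR25 and 3 unnamed genes on the other strand.

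Of the secreted and surface genes, STC2 (chr5:173314723-173328447), a glycoprotein hormone induced by stress of the endoplasmic reticulum, was at 219, 238 and 257 CPM in adherent shCtrl, 192, 199 and 180 CPM in adherent shSigma, 85.7, 80.6 and 86.4 CPM in sphere shCtrl and 197, 180 and 191 CPM in sphere shSigma libraries. Spheres of shCtrl cells are far below the other 9 libraries, which lie between 180 and 257 CPM. The hairpin lowered STC2 by 0.38 ± 0.081 on the log2 scale in adherent cells (adjusted p = 0.00599) and raised it in spheres by 1.17 ± 0.0563 (adjusted p = 1.1e-08), and the difference of 1.49 ± 0.0991 (adjusted p = 1.64e-07) was the highest interaction of the 31 genes. In shCtrl cells STC2 was lower in spheres by 1.5 ± 0.0748 (adjusted p = 3.1e-06), while shSigma cells gave 0.01 ± 0.0663 (adjusted p = 0.88).

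GDF15 (chr19:18374731-18389176), a secreted stress hormone of the TGF-β family, was close to the limit of detection in adherent cells. It had 3, 4 and 6 counts in adherent shCtrl libraries and 2, 4 and 2 counts in adherent shSigma libraries, too few to be tested there. In spheres it had 433, 306 and 287 counts with shCtrl, or 25.4, 16.9 and 14.5 CPM, and 31, 21 and 25 counts with shSigma, or 1.56, 1.11 and 1.32 CPM. All shCtrl sphere libraries lie above all shSigma sphere libraries, and both lie above the adherent ones. The hairpin's log2 fold change in spheres was -3.81 ± 0.265 (adjusted p = 1.73e-06). Sphere culture raised GDF15 by 6.72 ± 0.348 on the log2 scale with shCtrl (adjusted p = 5.38e-06) and 3.31 ± 0.375 with shSigma (adjusted p = 0.000331), values that rest on the few adherent counts and that the gene could only reach by passing the filter through its sphere libraries. The interaction of -3.42 (adjusted p = 0.00686) was lost without adherent shSigma replicate 2 (-2.98, adjusted p = 0.0605).

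VLDLR (chr9:2621182-2660056), a lipoprotein receptor that ATF4 is known to induce, went the opposite way to most of the list with the hairpin. It was at 66.8, 67.9 and 65.1 CPM in adherent shCtrl, 117, 119 and 134 CPM in adherent shSigma, 35.3, 39 and 39 CPM in sphere shCtrl and 67.8, 76.1 and 69 CPM in sphere shSigma libraries. The hairpin groups are separate in both cultures. Its rise was 0.82 ± 0.0649 on the log2 scale in adherent cells (adjusted p = 6.25e-05) and 0.91 ± 0.0724 in spheres (adjusted p = 7.08e-07), while the interaction was 0.02 ± 0.104 (adjusted p = 0.9). Sphere culture lowered it with both hairpins, by 0.82 with shCtrl (adjusted p = 5.21e-05) and 0.77 with shSigma (adjusted p = 8.67e-05). It overlaps the antisense gene VLDLR-AS1, and how strand was used in counting is not given in the sources used here.

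Further genes of the same pathway, listed by function, were read beside the members. Among 16 other cytosolic tRNA synthetases tested, 11 were lower in adherent shSigma cells and 0 higher, at a median log2 fold change of -0.33, beside 27.7% lower and 22.3% higher of all genes. YARS1, the tyrosine enzyme, fell most (-1.04, adjusted p = 7.03e-05). In spheres 8 of the 16 were lower and 3 higher, beside 30.9 and 30.2% of all genes, and the interaction was called above 0 for 7 and below 0 for 1, beside 12.7 and 15.6%. Of 15 mitochondrial synthetases, 8 were lower and 1 higher in adherent shSigma cells, and 7 lower and 1 higher in shSigma spheres. The shares called in either direction were 60 and 53.3%, beside 50.0 and 61.1% of all genes. By direction, 53.3% were lower and 6.67% higher in adherent cells, beside 27.7 and 22.3% of all genes. In spheres 46.7% were lower and 6.67% higher, beside 30.9 and 30.2% of all genes. PARS2, the mitochondrial proline enzyme, fell in shSigma spheres (-1.02, adjusted p = 4.64e-05).

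Upstream of ATF4, 20 genes of the eIF2 kinases and what activates them, the eIF2 subunits, their exchange factor eIF2B and the phosphatase were tested. In adherent shSigma cells 5 were lower and 1 higher (30% called, median log2 fold change -0.03), and in shSigma spheres 6 were lower and 3 higher (45% called, median -0.05), beside 50.0 and 61.1% of all genes called. EIF2S1, the subunit whose phosphorylation sets off the response, was among the lower genes in both, by 0.69 (adjusted p = 0.000739) and 0.81 (adjusted p = 9.95e-08) on the log2 scale. EIF2AK3, the kinase PERK, was higher in spheres than in adherent cells with shCtrl (0.40, adjusted p = 0.00453) and with shSigma (0.49, adjusted p = 0.00145). Most calls of this list went the other way. With shCtrl, 4 of the 20 genes were higher in spheres and 8 lower, beside 27.4 and 26.3% of all genes. With shSigma, 2 were higher and 10 lower, beside 21.9 and 25.2% of all genes.

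Of 17 other enzymes of one-carbon and amino acid metabolism, 7 were lower and 2 higher in shSigma cells of each culture, or 52.9% called, beside 50.0% of all genes in adherent cells and 61.1% in spheres. CTH, which makes cysteine from cystathionine, fell in both, by 1.77 on the log2 scale in adherent cells (adjusted p = 1.28e-05) and 1.17 in spheres (adjusted p = 7.46e-07). MTHFD1, the cytosolic counterpart of the MTHFD2 pathway, fell by 1.38 in adherent cells (adjusted p = 1.33e-05). BCAT1, which starts the breakdown of branched-chain amino acids, rose by 1.03 in shSigma spheres (adjusted p = 2.66e-07), and its interaction was 1.41 (adjusted p = 1.61e-06).

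Of 9 other known ATF4 targets tested, 6 were higher in adherent shSigma cells and 0 lower, beside 22.3% higher and 27.7% lower of all genes. Among them were VEGFA (1.45, adjusted p = 8.16e-06) and TXNIP (2.84, adjusted p = 2.22e-05), both of which also answer to other regulators. TXNIP, an inhibitor of thioredoxin and of glucose uptake, averaged 4.03 ± 0.841 CPM in adherent shCtrl, 30.2 ± 3.12 CPM in adherent shSigma, 73.8 ± 6.56 CPM in sphere shCtrl and 35.3 ± 2.41 CPM in sphere shSigma cells. In shCtrl cells it was higher in spheres by 4.19 on the log2 scale (adjusted p = 7.95e-07), and its interaction was -3.97 (adjusted p = 5.15e-09), beside -1.42 for VEGFA (adjusted p = 5.67e-07). In shSigma spheres 4 of the 9 were higher and 2 lower, beside 30.2 and 30.9% of all genes, TXNIP with a fall of 1.07 on the log2 scale (adjusted p = 5.01e-07).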

How the data were processed

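RNA of adherent and tumor sphere DU145 cells was made into directional libraries and read from 1 end. The authors aligned reads with STAR 2.6.1c to GRCh38.p12, per the labels' processing notes, and deposited raw counts per Ensembl gene, without normalization. Which annotation and strand setting were used, and how multi-mapping reads were counted, is not given in the sources used here. The study's own test was DESeq2.

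Groups and replicate numbers came from the labels. From the deposited counts, 28747 identifiers were read (26153 with a symbol in GENCODE release 44). Each comparison was fitted on its own libraries with edgeR 4.0.16 in R 4.3.3 (TMM, filterByExpr at a minimum count of 10, robust quasi-likelihood test, two-sided, prior count 0.125), the interaction on all 12, and p-values were adjusted by Benjamini-Hochberg within each comparison. The threshold for a call was an adjusted p of 0.05. CPM used TMM over all 12 libraries. Lengths are those of MANE Select transcripts and coordinates those of GENCODE 44 on GRCh38. RefSeq promoters gave the sequences. Groups were called separate when their CPM ranges did not overlap.

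The 33 genes, the other lists and the tests were chosen with earlier results of these data known. Library values are given for ATF4, ATF3 and DDIT3, and for the 3 highest and 3 lowest called log2 fold changes in each comparison. From the other pathway lists, genes called with a log2 fold change over 1 in size are named, at most 4 by size. The genes EIF2S1 and EIF2AK3, and the members given by group means, fall outside that rule and were picked with their values in view.

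The comparisons were recomputed with DESeq2 1.42.0, with edgeR on DESeq2 size factors or on upper-quartile factors, without the filter, with a floor of 10 counts for each library, with all 12 libraries in 1 fit, and with the replicate block, an adjusted p under 0.01, a log2 fold change over 1 as well, a refit against the 40 nearest tested genes, and each library left out. Leaving out both adherent libraries that stand apart was chosen after seeing the data. The fits were tested on simulated counts. With 16472722 to 26957777 counts per library, 1 count is a small fraction of 1 CPM, and genes with a few counts are known only within wide counting error. No count column was left unused (0). Figures were drawn with Python 3.11.15 and matplotlib 3.10.9. The check of the gene that the hairpin targets is not reported here.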

Additional observations from a re-analysis of the deposited data

Results flagged for a closer look

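For 15 genes the effect of the hairpin differed between tumor spheres and adherent cells in a test of that difference, the interaction over all 12 libraries. Values are log2 fold changes in spheres minus those in adherent cells. Of the transporters, SLC7A11 gave 1.01, SLC38A2 gave 0.62 and SLC3A2 gave 0.49, each from a fall in adherent cells that was smaller or not called in spheres, and SLC1A4 gave -0.47. STC2 at 1.49, PSAT1 at 0.65 and PPP1R15A at 0.83 were called higher in shSigma spheres. Of these, STC2 and PSAT1 were called lower in adherent shSigma cells, while PPP1R15A was not called there. Among regulators ATF3 gave 0.65 and NUPR1 gave -1.45. The tRNA synthetases split, with AARS1 at 0.31 and GARS1 at 0.37 but WARS1 at -0.60 (the GARS1 call was lost without any 1 of 4 libraries, adjusted p = 0.053 to 0.0577), and so did the one-carbon enzymes, with MTHFD2 at 0.28 and SHMT2 at -0.51. The calls of NUPR1, MTHFD2 and SHMT2 were lost in 12 of 19, 10 of 20 and 13 of 20 refits. GDF15 gave -3.42 from 2 to 6 counts in each adherent library. In a fit without both adherent libraries that stand apart, which were doubted after their values were seen, GDF15 was no longer called (-3.35, adjusted p = 0.0575).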

How the results depend on the processing

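Of 2428 refits of single genes, 2192 kept direction and side of the threshold, 119 lost a call, 64 gained one and 53 turned sign, of which 1 involved a call. That was PHGDH in shCtrl spheres over adherent cells, 0.21 against its 40 nearest genes (adjusted p = 0.0411). The cause of these changes was not tested. Called counts in the order higher, lower moved as follows. With a log2 fold change over 1 as well they were 1 and 4 (knockdown, adherent), 2 and 3 (knockdown, spheres), 2 and 2 (culture, shCtrl), 3 and 0 (culture, shSigma) and 2 and 2 (interaction). At an adjusted p under 0.01, 4 were lower for culture in shSigma, and the interaction gave 6 and 3. With at least 10 counts in every library, which leaves fewer genes to test, 1 was higher for knockdown in adherent cells, 2 higher for culture in shCtrl and 2 lower for the interaction. A single fit of all 12 libraries gave 4 higher for knockdown in adherent cells. No filter gave 3 lower for the interaction. Same-numbered libraries did not as a rule deviate together (correlations -0.817 to 0.379 over 12 pairs, over 0.1 in 3 of them). Deviations from a mean of 3 libraries are tied to each other, so these values cannot settle whether the numbers pair libraries. Across numbers, adherent shSigma replicate 3 and adherent shCtrl replicate 1 gave 0.787. The replicate block gave 3 lower for the interaction.

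With 1 library left out, counts ranged from 2 to 3 higher and 13 to 18 lower (knockdown, adherent), 6 to 7 and 11 to 15 (knockdown, spheres), 4 to 6 and 13 to 17 (culture, shCtrl), 7 to 10 and 5 to 11 (culture, shSigma) and 8 to 13 and 2 to 5 (interaction). Lower calls for culture in shSigma numbered 6, 5 and 5 without sphere shSigma replicate 1, 2 or 3. Interaction calls below 0 numbered 2 without adherent shSigma replicate 2, and 3 without adherent shCtrl replicate 1 or 2, adherent shSigma replicate 1, any sphere shCtrl replicate or sphere shSigma replicate 2 or 3. Higher calls for knockdown in adherent cells numbered 3 without shCtrl replicate 2 or shSigma replicate 3, and for culture in shCtrl 6 without adherent replicate 3.

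Signs of uncalled values turned as follows. Against the 40 nearest genes they did so for knockdown in adherent cells (DDIT3 0.235, SHMT2 0.188), knockdown in spheres (ASNS -0.343), culture in shCtrl (TRIB3 -0.176, SHMT2 -0.191), culture in shSigma (DDIT3 -0.048, PPP1R15A -0.156, SLC7A11 0.022, SLC7A1 0.018, SLC1A5 -0.342) and the interaction (CEBPG 0.039, PHGDH -0.041, XPOT -0.13). For knockdown in adherent cells TRIB3 was 0.02 with DESeq2 or its size factors, 0.049 with upper-quartile factors, 0.003 with no filter, 0.054 in a single fit of all libraries and 0.023 without those that stand apart. ATF4 for culture in shCtrl was 0.036 with upper-quartile factors, 0.008 with at least 10 counts and 0.01 without the library that stands apart, where SHMT2 was -0.128. For culture in shSigma STC2 was -0.007 in a single fit, and without the library that stands apart STC2 was -0.043 and SLC1A5 -0.028. The interaction of CEBPG was 0.024 with no filter and 0.005 with at least 10 counts. Leaving out 1 library gave ranges across 0 for knockdown in adherent cells (DDIT3 -0.174 to 0.051, TRIB3 -0.02 to 0.077, EIF4EBP1 -0.387 to 0.035), knockdown in spheres (SLC38A2 -0.013 to 0.129), culture in shCtrl (ATF4 -0.083 to 0.01, SHMT2 -0.128 to 0.106), culture in shSigma (TRIB3 -0.164 to 0.024, SLC7A5 -0.366 to 0.045, SLC1A5 -0.028 to 0.203, STC2 -0.043 to 0.055) and the interaction (CEBPG -0.069 to 0.063, EIF4EBP1 -0.143 to 0.283, VLDLR -0.001 to 0.156).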

Other observations

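Amino acid transporters outside the list included some wide changes. SLC7A2, an importer of arginine and lysine related to SLC7A1, averaged 17.3 ± 0.16 CPM (SD, n = 3) in adherent shCtrl, 7.72 ± 0.172 CPM in adherent shSigma, 188 ± 9.14 CPM in sphere shCtrl and 22.1 ± 2.23 CPM in sphere shSigma cells. Its hairpin effect was -1.22 on the log2 scale in adherent cells (adjusted p = 5.09e-05) and -3.09 in spheres (adjusted p = 4.13e-11), and the interaction was -1.93 (adjusted p = 5.2e-08). SLC1A3, a glutamate and aspartate importer, was higher with the hairpin, in spheres from 0.362 ± 0.0371 CPM with shCtrl to 1.83 ± 0.318 CPM with shSigma (2.30, adjusted p = 2.83e-05) and in adherent cells by 0.73 on the log2 scale (adjusted p = 0.0135). Both were called in the culture comparisons too, SLC7A2 higher in spheres by 3.44 with shCtrl and 1.54 with shSigma, and SLC1A3 lower in spheres (-2.70 and -1.16). The SLC1A3 interaction was 1.51 (adjusted p = 0.00619).

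Of 10 such transporters tested for the knockdown, 6 were lower and 1 higher in adherent shSigma cells, and 4 were lower and 3 higher in shSigma spheres, or 70% called in each, beside 50.0 and 61.1% of all genes. SLC6A14, a broad importer of neutral and basic amino acids, was near the limit of detection in adherent cells and at 2.46 ± 0.898 CPM in shCtrl spheres, and fell by 1.54 on the log2 scale in shSigma spheres (adjusted p = 0.000798). It was higher in spheres with both hairpins (5.39 with shCtrl, 3.06 with shSigma), values that rest on near-zero adherent levels. SLC43A2, a transporter of large neutral amino acids, was higher in shSigma spheres than in adherent shSigma cells (1.92, adjusted p = 0.00135).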
